A study of Mus musculus with 2 samples.

Results

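The 39 genes described here encode the endoplasmic reticulum (ER) chaperones, folding enzymes and translocation machinery of the secretory pathway, together with the sensors and transcription factors that adjust them. The members were the rows of the deposited matrices with these gene symbols, 39 of 27998 genes listed. All 39 were found, 1 of them (Selenos) under the older symbol Vimp by its Ensembl identifier. Cells came from the retinal pigment epithelium (RPE), the pigmented monolayer behind the photoreceptors, of 2 male C57BL/6J mice at postnatal day 36, named R1 and R2. Both mice were of the same strain and untreated, so no condition was compared. For each mouse both eyes were pooled, the RPE was freed with trypsin, and viable single cells were sorted and captured in droplets.

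Proteins that are secreted, or that sit in membranes and lysosomes, enter the ER through the Sec61 translocon, lose their signal peptide, receive N-glycans and are folded by chaperones such as BiP, the product of Hspa5. When unfolded protein accumulates, BiP leaves the stress sensors, and the transcription factors ATF6, XBP1 and ATF4 raise chaperone and degradation genes in what is called the unfolded protein response. The RPE is a strongly secretory epithelium, and transthyretin (Ttr), the carrier of thyroxine and retinol-binding protein, is among its most abundant secreted products.

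A unique molecular identifier (UMI) marks 1 captured mRNA molecule at its 3′ end, so levels were not corrected for transcript length. How evenly different genes were captured was not tested, so ranks between genes are ranks of UMIs. The matrices held 26034378 UMIs in 2844 cells of R1 and 29732969 UMIs in 2994 cells of R2, and 12 cell barcodes occurred in both mice. After filters on gene number, mitochondrial share and doublet score, 2671 and 2847 cells remained. Of these, 2612 and 2828 had Ttr at 5% or more of their UMIs (Ttr-rich cells) and 59 and 19 had Ttr under 3% (low-Ttr cells), and no cell lay between these limits. Ttr-rich cells held all 8 RPE markers checked, whereas in low-Ttr cells Best1 was at 0 in both mice and the summed level of the 8 markers was 35.6 (R1) and 24.5 (R2) per 10000 UMIs against 451 and 514. Levels are given as UMIs per 10000 UMIs other than Ttr, because a higher Ttr share lowers every other share.

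Several of the promoters of these genes carry the ER stress response element (ERSE), the site at which ATF6 acts together with NF-Y. These promoters are shown first because 5 of the members that rose with Hspa5 across cells, described further on, hold the element. Promoters of 300 bases, from 250 before to 50 after the start site, came from RefSeq (GRCm38.p6) and were found for 33 of the 39 members; Hyou1, Manf, Atf6, Sec61a1, Ssr2 and Ostc had no entry. The ERSE, CCAAT and CCACG with 9 free bases between them, searched on both strands, was in the promoters of 8 of the 33 members (24.2%), namely Hspa5, Hsp90b1, Dnajc3, Creld2, Calr, Canx, Pdia6 and Syvn1. Of all 32851 promoters in the table, 39 (0.119%) held it. The match is shown in capitals, 5′ to 3′ on the strand of the gene, for Hspa5 and for 5 members that rose with it. The flanks are 30 bases, or 5 for Hspa5, where GENCODE annotates a longer first exon.
Hspa5: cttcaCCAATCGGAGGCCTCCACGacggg
Pdia6: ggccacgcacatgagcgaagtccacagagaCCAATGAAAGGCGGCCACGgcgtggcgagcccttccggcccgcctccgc
Hsp90b1: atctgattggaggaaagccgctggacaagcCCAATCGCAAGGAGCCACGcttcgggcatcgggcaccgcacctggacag
Dnajc3: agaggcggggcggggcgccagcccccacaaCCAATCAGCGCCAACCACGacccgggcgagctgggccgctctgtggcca
Creld2: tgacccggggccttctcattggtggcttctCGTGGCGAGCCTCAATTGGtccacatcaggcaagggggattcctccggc
Calr: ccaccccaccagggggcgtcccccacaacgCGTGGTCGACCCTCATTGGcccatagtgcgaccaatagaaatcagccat

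In GRCm38 these windows lie at chr2:34772020-34772048 (plus strand) for Hspa5, chr12:17266461-17266539 (plus) for Pdia6, chr10:86705608-86705686 (minus) for Hsp90b1, chr14:118937797-118937875 (plus) for Dnajc3, chr15:88819490-88819568 (plus) for Creld2 and chr8:84847045-84847123 (minus) for Calr. In Creld2 and Calr the element reads on the opposite strand. Its first printed base lies 65 bases before the start site in Hspa5, 98 in Pdia6, 212 in Hsp90b1, 105 in Dnajc3, 126 in Creld2 and 162 in Calr, and Hsp90b1 holds a second match 107 bases before its start. A related element, ERSE-II (ATTGG and CCACG with 1 free base between them), was in the promoters of Dnajb11 and Herpud1, 2 of 33 members against 12 of all 32851 (0.0365%). The motif TGACGTGG, a core at which XBP1 can bind and whose reverse complement shares CCACG with both elements, was in none of the 33 and in 222 of all promoters (0.676%). A match is a run of letters and was not tested for binding. The motifs were chosen as known sites of the unfolded protein response. Their shares among the members are therefore a description and were not tested.

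In Ttr-rich cells, the 39 genes together took 67.9 UMIs per 10000 in R1 (95% Poisson interval 67.5 to 68.3, n = 2612 cells) and 62.7 in R2 (62.4 to 63.0, n = 2828 cells). These intervals cover counting error alone, and with 1 library per mouse the difference between mice has no replicate check. Single cells ranged from 15.1 to 189 per 10000 in R1 and from 11.4 to 183 in R2, with quartiles of 55.3 and 77.2 in R1 and 52.0 and 71.7 in R2. The summed level hardly moved with depth. Across cells split at 5000, 7500, 10000 and 15000 UMIs, from shallow to deep, it was 64.7, 67.1, 68.2, 68.5 and 68.5 in R1 and 62.1, 60.2, 61.5, 63.1 and 63.5 in R2.

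**Figure D1:**
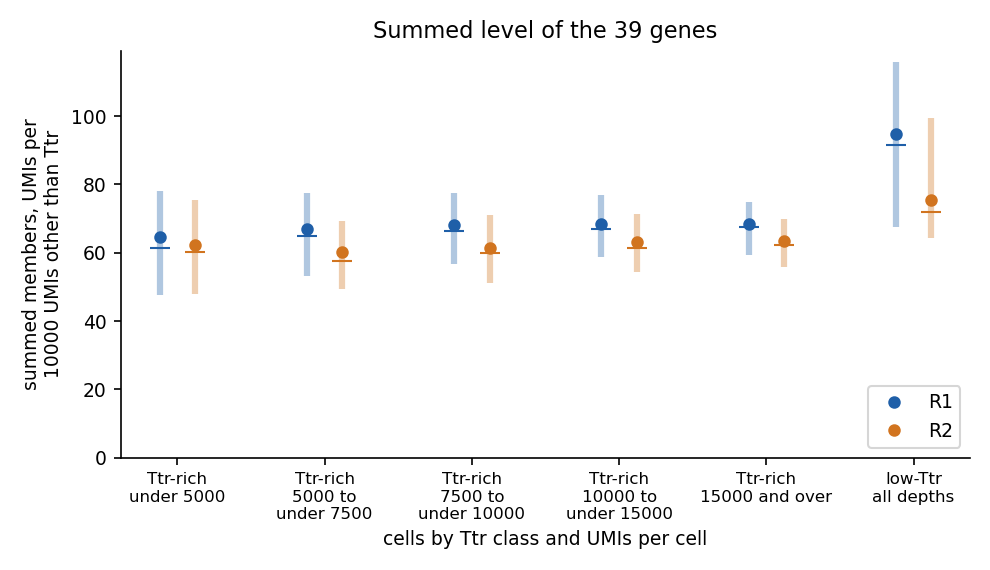
Summed level of the 39 genes in UMIs per 10000 UMIs other than Ttr, for Ttr-rich cells by depth and for low-Ttr cells, in R1 and R2. Dots are sums over all cells of a class, dashes the median cell and pale bars the quartiles over cells; the dots stay between 60.2 and 68.5 across depth and are 94.8 (R1) and 75.6 (R2) in low-Ttr cells.

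Genes of N-glycosylation and signal peptide removal were among the most abundant members in both mice. Dad1, a subunit of the oligosaccharyltransferase that attaches N-glycans, was the most abundant member at 5.53 (R1) and 5.59 (R2) per 10000. Spcs1, of the signal peptidase, stood at 4.70 and 5.46, and Calr, the lectin chaperone calreticulin that holds glycoproteins and stores calcium, at 4.58 and 3.77. The prolyl isomerase gene Ppib, encoding cyclophilin B, stood at 3.95 and 4.04. The 11 genes of the translocon, signal peptidase and oligosaccharyltransferase together took 23.5 and 24.8 per 10000, the 9 chaperones and co-chaperones 17.7 and 14.1, the 4 disulfide isomerases 6.67 and 5.73, the 2 prolyl isomerases 6.69 and 6.85 and the 2 lectin chaperones 6.39 and 5.51. The 5 genes of ER-associated degradation took 3.72 and 3.11 and the 6 sensors and transcription factors 3.22 and 2.59. The sensors were low. Ern1, which encodes the sensor IRE1 that splices Xbp1 mRNA, was at 0.0825 and 0.0706, Eif2ak3 (the sensor PERK) at 0.148 and 0.125, and Atf6 at 0.177 and 0.164. Edem1, which directs misfolded glycoproteins to degradation, was lowest at 0.0391 and 0.0338.

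Hspa5 differed in level between the mice. It stood at 5.15 per 10000 in R1, second of 39, and at 3.38 in R2, seventh, a ratio of 1.53. Over all members the ratio of R1 to R2 had a median of 1.14, was above 1 for 31 genes and passed 1.3 for 8 of them, which besides Hspa5 were Hyou1, Manf, Creld2, Xbp1, Herpud1, Syvn1 and Sec61g. The ratio was not taken over all genes, so these counts do not set the members apart from the libraries as a whole. The paper raises a possibly lower sample quality in R2. Genes of the dissociation response summed to 2.87 (R1) and 6.599 (R2) per 10000 in Ttr-rich cells. The part of either in the difference between mice was not tested. Hspa5 was detected in 81.5% and 70.3% of Ttr-rich cells. Its spread between cells beyond counting noise, as a coefficient of variation, was 0.67 in R1 and 0.76 in R2, against 0.39 and 0.39 for Dad1, 0.39 and 0.44 for Spcs1, 0.44 and 0.41 for Ppib and 0.44 and 0.50 for Calr. Manf, a secreted ER-resident neurotrophic factor, was similar to Hspa5 at 0.76 and 0.72, and less abundant members such as Sdf2l1, Pdia4 and Dnajb9 had larger values than Hspa5 in both mice.

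**Figure D2:**
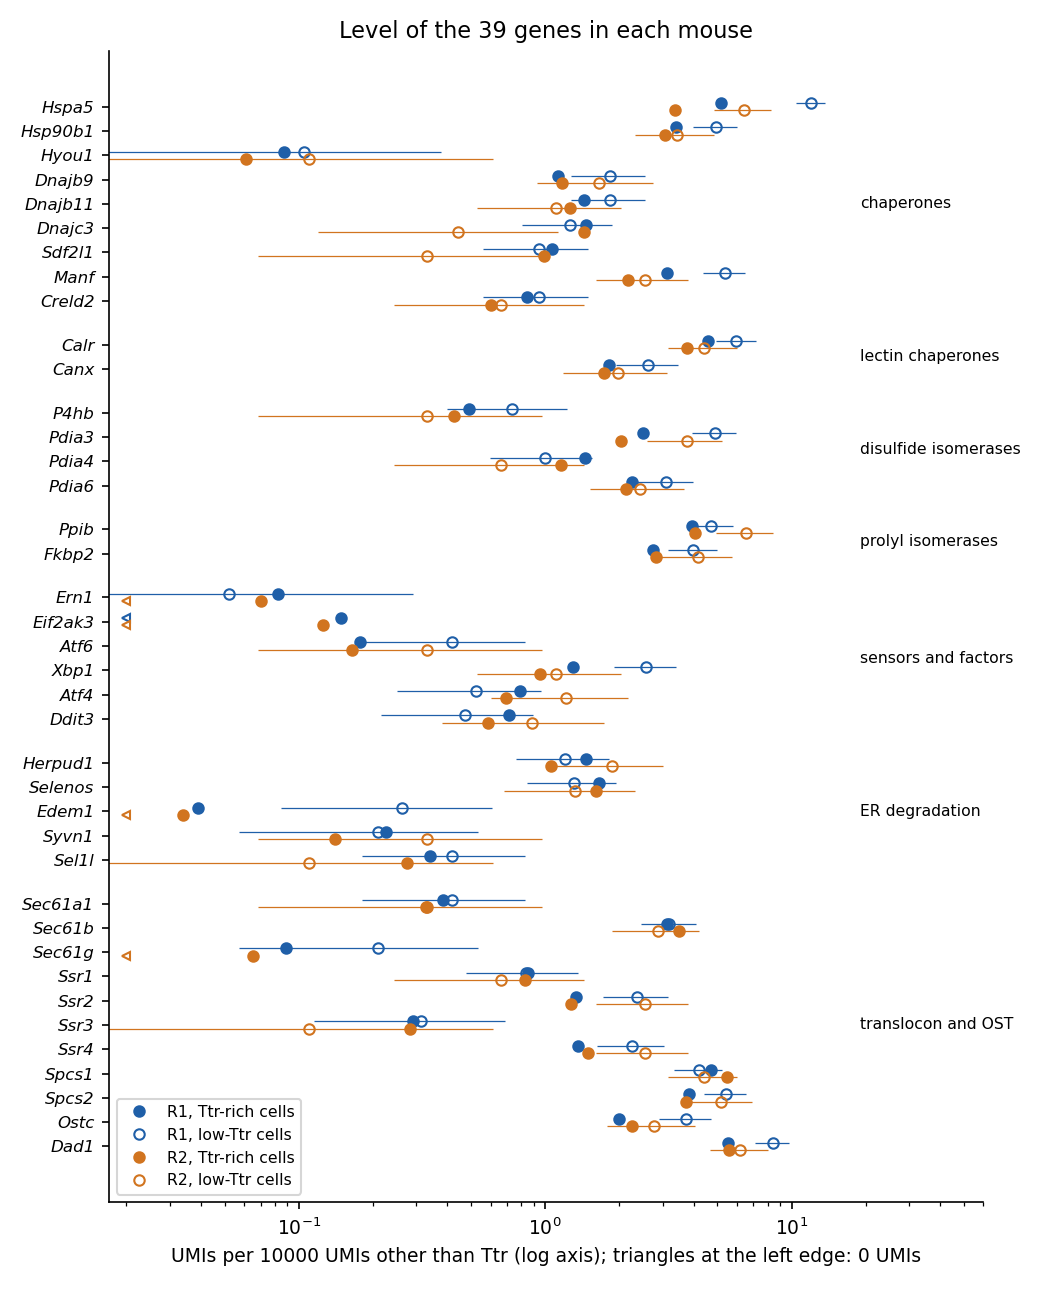
Level of each of the 39 genes in UMIs per 10000 UMIs other than Ttr (log axis), grouped by role; filled dots are Ttr-rich cells, open dots low-Ttr cells with 95% Poisson intervals, triangles 0 UMIs, and OST is the oligosaccharyltransferase. Dad1 leads in Ttr-rich cells of both mice, Hspa5 leads in low-Ttr cells at 11.9 (R1), and the sensors Ern1, Eif2ak3 and Atf6 lie under 0.2 in Ttr-rich cells.

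Whether the members moved with Hspa5 was asked by summing UMIs per mouse over the upper and over the lower tertile of Ttr-rich cells ranked by Hspa5 within each depth bin, which gave 4 libraries. Cells tied at the lower limit were all taken into the lower tertile. The upper and lower tertiles therefore held 872 and 944 cells in R1 and 944 and 1110 in R2. The genes that rose with Hspa5 included 3 of 4 disulfide isomerases and 5 of 8 other chaperones, while 0 of the 11 translocon, signal peptidase and oligosaccharyltransferase genes passed the test. Of the 38 other members, 10 were higher and 0 lower in the upper tertile (edgeR's quasi-likelihood test with the mouse as a block, adjusted p under 0.05 over all 11022 genes tested). This is 26.3% of the members, while 2.01% of all genes tested were called higher and 0.626% lower. The median SE was 0.072 over the members and 0.17 over all genes, so smaller changes could pass among the members. No genes of matched level were set beside them. The median log2 fold change was 0.09 over the 38 members and -0.01 over all genes.

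Pdia3, encoding the thiol oxidoreductase ERp57 that works on glycoproteins held by calreticulin and calnexin, changed most. Its level was 3.20 in the upper and 1.85 in the lower tertile of R1 and 2.42 and 1.71 in R2, a log2 fold change of 0.67 ± 0.06 (SE), adjusted p = 4.3e-25 by edgeR. Both mice moved the same way, with R1 further apart than R2. Pdia6, a disulfide isomerase that binds BiP, stood at 2.67 and 1.91 in R1 and 2.49 and 1.85 in R2, a log2 fold change of 0.49 ± 0.06, adjusted p = 1.4e-12 by edgeR. Pdia4, a further isomerase, stood at 1.77 and 1.26 in R1 and 1.24 and 1.05 in R2, a log2 fold change of 0.39 ± 0.07. The fourth isomerase, P4hb, the classical protein disulfide isomerase, was 0.499 and 0.472 in R1 but 0.348 and 0.464 in R2, so that the mice differed in sign, and it did not pass the test (log2 fold change -0.13 ± 0.11).

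Among the chaperones, 5 of the 8 other than Hspa5 rose. Hsp90b1, encoding the ER HSP90 paralog GRP94, stood at 3.77 and 3.01 in R1 and 3.31 and 2.84 in R2 (log2 fold change 0.30 ± 0.06). The BiP co-chaperone genes Dnajc3 and Dnajb9 rose by 0.33 ± 0.07 and 0.33 ± 0.07 on the log2 scale, Creld2, an ER stress-inducible gene, by 0.34 ± 0.09, and Manf by 0.22 ± 0.06. For Creld2 and Dnajb9 most of the difference was in R1. Creld2 stood at 1.02 and 0.698 in R1 but at 0.642 and 0.618 in R2, and Dnajb9 at 1.36 and 0.947 in R1 but at 1.19 and 1.10 in R2. Sdf2l1, Dnajb11 and Hyou1 did not pass the test (log2 fold changes 0.22 ± 0.08, 0.17 ± 0.07 and -0.33 ± 0.27). Of the lectin chaperones, Calr rose by 0.17 ± 0.05 and Canx, calnexin, gave 0.19 ± 0.06 without passing (adjusted p = 0.097 by edgeR).

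Of the 6 sensors and transcription factors, Xbp1 alone passed, at 1.48 and 1.15 per 10000 in R1 and 0.968 and 0.905 in R2 (log2 fold change 0.26 ± 0.08). Atf4 gave -0.20 ± 0.09 and Ddit3, the stress-induced factor CHOP, 0.03 ± 0.09, neither past the threshold. None of the 5 degradation genes, the 2 prolyl isomerase genes or the 11 translocon, signal peptidase and oligosaccharyltransferase genes was called, and at an unadjusted p under 0.05 there were 1, 0 and 2 of them. Dad1, the most abundant member, was 5.34 and 5.75 in R1 and 5.54 and 5.71 in R2. Of the 9 called members with a promoter in the table, 5 held an ERSE (Hsp90b1, Dnajc3, Creld2, Calr and Pdia6). The called members Pdia3, Pdia4, Dnajb9 and Xbp1 had a promoter there without one. Of the 23 members that were not called and had a promoter, 2 held an ERSE (Canx and Syvn1). A link between the element and these calls was not tested.

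**Figure D3:**
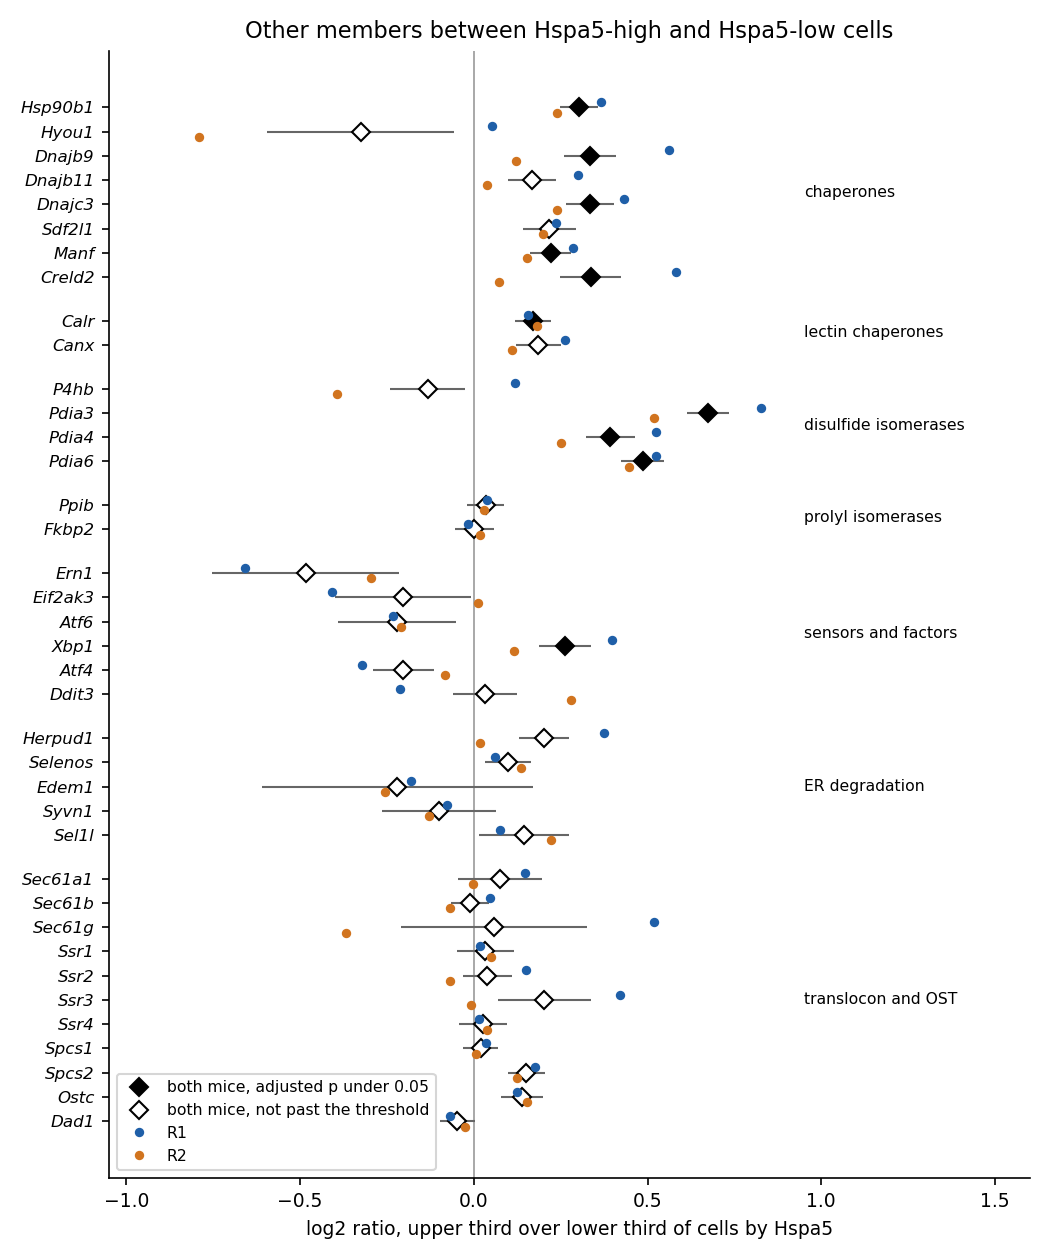
Log2 ratio of each member other than Hspa5 between the upper and the lower tertile of Ttr-rich cells by Hspa5, grouped by role. Diamonds with bars are the edgeR fit of both mice ± SE, filled where the adjusted p is under 0.05, and dots are R1 and R2; Pdia3 (0.67), Pdia6 (0.49) and Pdia4 (0.39) lie farthest to the right, and the 11 translocon and oligosaccharyltransferase (OST) genes are open.

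The count of 10 depended on the fit. Without the mouse as a block it was 0 (6 at an unadjusted p under 0.05), where 1 gene (0.00907% of all tested) was called higher and 0 lower. With DESeq2 it was 3 (0.517% of all genes called higher and 0.0544% lower), with library totals in place of TMM 5 (1.09% and 0.544%) and with tertiles taken in depth deciles 5 (0.973% and 0.127%), where Dnajc3, Hsp90b1, Pdia3, Pdia4 and Pdia6 were the 5 called in both of the last fits. The Hspa5-low tertile was also shallower, with a median of 7882 against 8576 UMIs per cell in R1 and 6201 against 7729 in R2, and had a higher mitochondrial share (1.41% against 1.17% and 1.31% against 1.22%), and the part of these in the result was not tested as such. In cells of at least 5000 UMIs, where the medians were closer (9743 against 9919 and 11031 against 11391), 8 members were called, all of the 10 but Creld2 and Xbp1. Of all 10828 genes tested in those cells, 134 were called higher and 28 lower.

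Another 81 genes of the secretory pathway and its stress response, outside the 39, were examined in the fit of the Hspa5 tertiles. They are called the other secretory genes below. Of the 72 tested, 5 (6.94%) were higher and 0 lower, beside 2.01% of all genes called higher and 0.626% lower. Their median SE was 0.11 against 0.17 over all genes, which limits this comparison of shares too. The 5 were 3 oligosaccharyltransferase subunits, Stt3a, the catalytic subunit (log2 fold change 0.43 ± 0.10), Rpn2 (0.33 ± 0.07) and Ddost (0.27 ± 0.08), together with Erlec1, an ER lectin of the degradation pathway (0.39 ± 0.08), and Rcn2, a calcium-binding protein of the ER (0.27 ± 0.06).

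Cell by cell, the same pattern was weak and depended on depth and mouse. Pearson's r between Hspa5 and the sum of the 38 other members, on log2 levels with a pseudocount of 1 and averaged over the 5 depth bins, was 0.21 across 2612 cells of R1 and 0.094 across 2828 cells of R2. These are descriptions across cells, which share a library and are not replicates, and counting noise lowers r where counts are few. The disulfide isomerase sum gave 0.26 and 0.11, the chaperone sum without Hspa5 0.20 and 0.081, the lectin chaperones 0.072 and 0.079, and the translocon, signal peptidase and oligosaccharyltransferase sum 0.028 and 0.011.

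The mice differed most in shallow cells. For the disulfide isomerases, r was 0.22 in R1 cells under 5000 UMIs and 0.35 in those of 15000 or more, whereas in R2 it was -0.001 in the 1002 cells under 5000 UMIs, 0.059 and 0.059 in the next depth bins, 0.21 at 10000 to under 15000 and 0.30 at 15000 or more. A relative covariance, to which counting noise adds nothing on average, was 0.46, 0.26, 0.16, 0.13 and 0.11 from the shallowest to the deepest bin of R1 and -0.012, 0.014, 0.046, 0.097 and 0.17 in R2, so it was largest in shallow cells of R1 and in deep cells of R2. When each cell was thinned to 4000 UMIs, which left 2128 and 1917 cells, the r of the isomerases was 0.19 in R1 and 0.084 in R2.

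**Figure D4:**
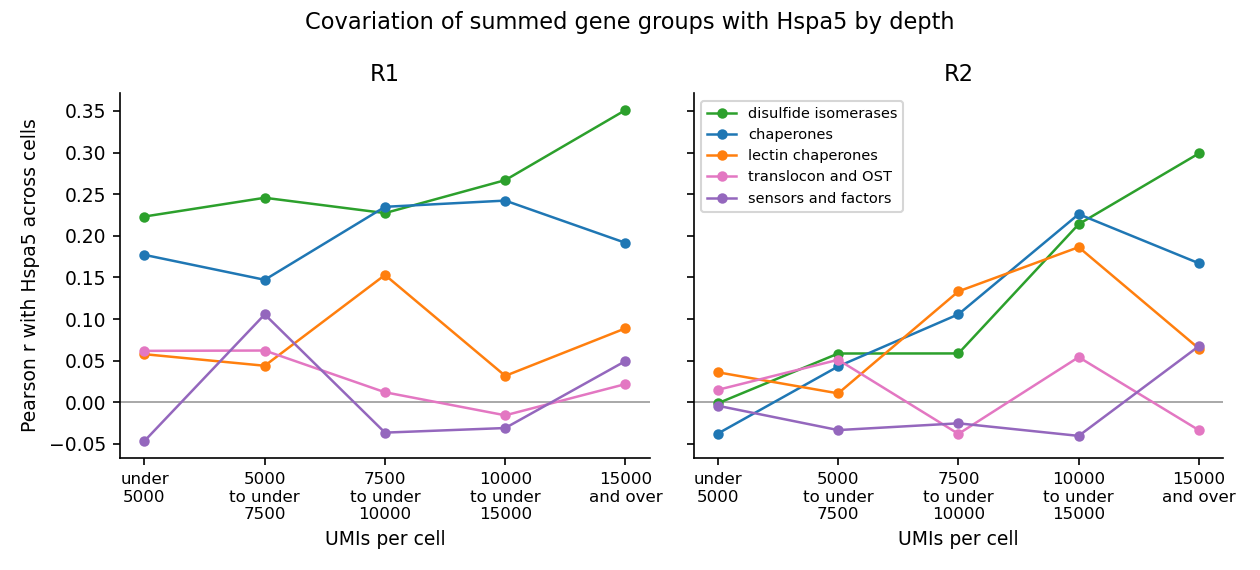
Pearson r across Ttr-rich cells between the log2 level of Hspa5 and the log2 summed level of 5 gene groups, by UMIs per cell, in R1 and R2; OST is the oligosaccharyltransferase. The disulfide isomerases are at 0.22 to 0.35 in R1 and go from about 0 to 0.30 in R2, and the translocon group stays near 0 in both.

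Among 2528 genes with a mean of at least 0.5 per 10000 in both mice, 27 of them members, the members nearest to Hspa5 by the lower r of the mice were Pdia6 (0.170 in R1 and 0.105 in R2, 16th), Pdia3 (0.233 and 0.105, 17th), Hsp90b1 (64th) and Dnajc3 (85th). The 10 genes with the highest values, none of them a member, were Trf, Clu, Rgr, Kcnj13, Psap, Ctsd, Apoe, Slc24a5, Cpe and Smpdl3a. Several encode proteins that themselves pass through the ER, such as the secreted transferrin (Trf, r 0.27 and 0.21), clusterin (Clu, 0.36 and 0.20) and apolipoprotein E (Apoe, 0.27 and 0.13), and the lysosomal saposin precursor (Psap, 0.27 and 0.14) and cathepsin D (Ctsd, 0.15 and 0.13). The mean levels of these 10 genes ran from about 2 per 10000 (Smpdl3a, 2.03 and 2.18) to over 200 (Rgr, 226 and 269.9). Counting noise lowers r where counts are few, so the ranking leans to abundant genes. How many of the 2528 genes encode proteins that pass through the ER was not counted. Of the 27 members, 4 were among the top 100.

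For the sum of the members, the relation to the Ttr share was close to none. Between the upper and the lower tertile of Ttr-rich cells by Ttr share within depth bins, with median shares of 13.7% against 9.34% in R1 and 14.7% against 11.2% in R2, the summed members stood at 67.3 against 69.3 per 10000 in R1 and 62.1 against 62.9 in R2. No member of 39 passed the test (edgeR, adjusted p over 10988 genes), beside 0.728% of all genes called higher and 0.309% lower. At an unadjusted p under 0.05 there were 8 members, 4 in each direction. Of all 10988 genes, 965 were under that limit, 535 higher and 430 lower. DESeq2 called 0 members (2 at an unadjusted p under 0.05), beside 0.282% of all genes called higher and 0.0364% lower.

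By group, the median log2 fold change between the Ttr tertiles was -0.10 over the 9 chaperones, 6 lower and 1 higher in both mice. Over the 4 disulfide isomerases it was -0.12, with 3 lower and 0 higher in both. Over the 11 translocon, signal peptidase and oligosaccharyltransferase genes it was 0.045, with 6 higher and 0 lower in both. Of all 10988 genes tested, 2966 were higher and 2904 lower in both mice. Hspa5 came nearest on the low side and Dad1 on the high side. Hspa5 stood at 4.99 in Ttr-high and 5.57 in Ttr-low cells of R1 and at 3.13 and 3.56 in R2 (log2 fold change -0.14 ± 0.04, adjusted p = 0.064 by edgeR). Its r with the Ttr share across cells, averaged over the depth bins, was -0.082 in R1 and -0.064 in R2, and negative in every bin. Without TMM scaling Hspa5 was the 1 member called, and the split of all calls then went from 80 higher and 34 lower to 33 (0.3%) and 52 (0.473%). Dad1 stood at 5.78 and 5.38 in R1 and 5.67 and 5.36 in R2 (log2 fold change 0.12 ± 0.04, adjusted p = 0.094 by edgeR). Across cells, r between the summed members and the Ttr share was -0.037 in R1 and -0.047 in R2, and between -0.15 and 0.047 over the 10 depth bins. With Ttr kept in the denominator, which ties the measures to each other, it was -0.14 in both mice. Of the 81 other secretory genes, 72 were tested and 0 called, with 6 at an unadjusted p under 0.05.

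Depth itself did not change the members detectably. Between Ttr-rich cells of 15000 or more and of under 5000 UMIs, 0 of 39 members passed (edgeR, 10146 genes; 1 at an unadjusted p under 0.05; DESeq2 0 members at either level, 0% of genes higher and 0.108% lower), beside 0.0591% of genes called higher and 0.719% lower. Hspa5 moved in opposite directions in the mice, from 4.76 in shallow to 5.33 in deep cells of R1 and from 3.75 to 3.31 in R2. Mitochondrial shares differed along with depth, at a median of 2.39% against 0.892% in R1 and 1.33% against 1.04% in R2, and their part in these values was not tested. Of the other secretory genes 1 of 70 was called, Kdelr2, a receptor that returns escaped chaperones to the ER, at a log2 fold change of -1.22 ± 0.25.

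In low-Ttr cells, Hspa5 stood well above its level in Ttr-rich cells in both mice, but whether the test called it depended on how the libraries were scaled. Hspa5 was at 11.9 per 10000 in the 59 low-Ttr cells of R1 (95% Poisson interval 10.4 to 13.6) against 5.15, a ratio of 2.32, and at 6.39 in the 19 low-Ttr cells of R2 (4.85 to 8.26) against 3.38, a ratio of 1.89. With TMM scaling over all tested genes the log2 fold change was 0.49 ± 0.31 (adjusted p = 0.42, edgeR). With TMM factors taken only from genes of at least 10 expected counts in the smallest library it was 0.81 (adjusted p = 0.0049, edgeR), and with library totals 1.08 (adjusted p = 0.00021, edgeR). In simulated unchanged counts with these depths, TMM over all tested genes put the small libraries too low. Both simulated classes had the Ttr-rich profile, however, so this does not show which scaling fits the low-Ttr cells.

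The scaling moved all genes together, so the members are also given against the other genes. With TMM the genes tested had a median SE of 0.99 against 0.41 for the members. Genes matched to the members in level were not compared. The median log2 fold change of the 11485 genes tested was -0.38 with TMM, -0.08 with TMM over abundant genes and 0.20 with library totals, and the calls went from 482 higher and 766 lower to 640 (5.57%) and 599 (5.22%) and to 872 (7.59%) and 465 (4.05%). The members' median lay above that of all genes by 0.13, 0.15 and 0.15 in the same fits, with 23 of 39 members above it in each. Among cells under 7500 UMIs in both classes, however, the members lay above it by only 0.015, with 19 of 38 above. Hspa5 lay above it by 0.87, 0.89 and 0.88.

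With TMM over all genes, 0 of 39 members were called higher and 1 lower. Of all genes tested, 4.2% were called higher and 6.67% lower. At an unadjusted p under 0.05 there were 7 members, all lower, beside 2258 of all genes, 782 higher and 1476 lower. The 1 called was Dnajc3, at 1.26 against 1.46 per 10000 in R1 and 0.441 against 1.44 in R2, the latter resting on 4 UMIs (log2 fold change -1.28 ± 0.45, adjusted p = 0.040 by edgeR). It was called under neither of the other scalings. Under those no member was called lower, and Hspa5, and with library totals Pdia3 too, were called higher. Pdia3 stood at 4.87 against 2.49 in R1 and 3.75 against 2.02 in R2. DESeq2 called 0 members (1 at an unadjusted p under 0.05, 4.34% of genes higher and 3.7% lower), and the fit without the mouse as a block called 7 lower (8.31% of genes higher and 12% lower).

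In low-Ttr cells the levels of the members did not all lie on the same side of their levels in Ttr-rich cells. Summed, they stood at 94.8 per 10000 in R1 (90.5 to 99.2) and 75.6 in R2 (70.0 to 81.5), 1.40 and 1.21 times the level in Ttr-rich cells, and 27 and 24 of the 39 genes were higher in level. These counts follow the scaling. The fitted fold change was above 0 for 27 of 39 with library totals and 21 with TMM over abundant genes. With TMM over all genes it was above 0 for 10 of 39, beside 4306 of all 11485 genes tested. Such counts over all genes were not made for the other scalings or for the levels. The chaperones took 29.1 and 16.6, the disulfide isomerases 9.69 and 7.16 and the prolyl isomerases 8.69 and 10.7. Ssr2 and Ssr4, subunits of the translocon-associated protein complex, stood at 2.36 and 2.25 in R1 and 2.53 and 2.53 in R2, against 1.33 and 1.36 and 1.27 and 1.49 in Ttr-rich cells. Pdia4, by contrast, was at 0.995 against 1.46 in R1 and 0.661 against 1.16 in R2, and Spcs1 at 4.19 against 4.70 and 4.41 against 5.46. None of these 4 passed the test with TMM. Of the 39 members, 17 had fewer than 10 UMIs in at least 1 low-Ttr library and 4 (Ern1, Eif2ak3, Edem1 and Sec61g) had 0 in at least 1, so no fold is given for them.

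**Figure D5:**
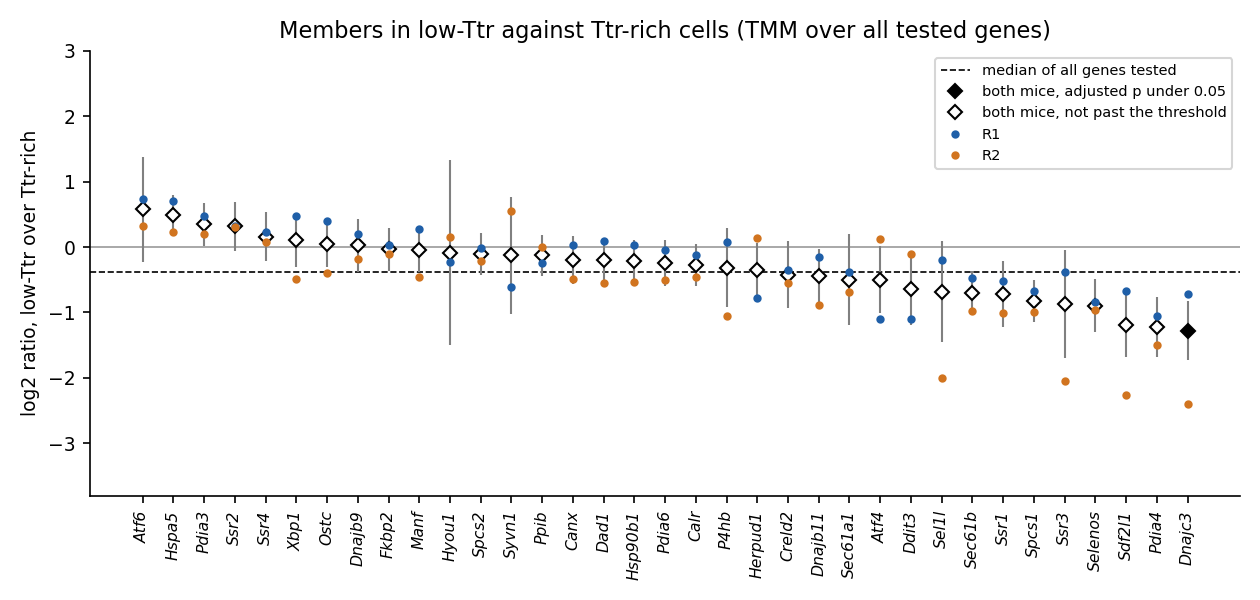
Log2 ratio of each member between low-Ttr and Ttr-rich cells with TMM over all tested genes, in order of the fit; diamonds with bars are both mice ± SE (filled: adjusted p under 0.05) and dots are R1 and R2. Ern1, Eif2ak3, Edem1 and Sec61g, with 0 UMIs in a low-Ttr library, are left out. The dashed line is the median of all genes tested, -0.38; Hspa5 lies at 0.49 and the filled Dnajc3 at -1.28, and other scalings move all points up together.

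The low-Ttr cells differed from the rest in other ways that move with these values. They were shallower (median 3200 and 3836 UMIs against 8420 and 7687) and had more mitochondrial UMIs (2.57% and 3.35% against 1.3% and 1.27%), and genes of the dissociation response summed to 4.92 and 15.1 per 10000 against 2.87 and 6.599, an excess that a few cells carried. The list of low-Ttr pigment cell markers, chosen with earlier results known, held Pax6, Dkk3, Mlana, Dct, Trpm1, Gpnmb, Pmel, Aldoc and Id3. These 9 genes summed to 302 (R1) and 214 (R2) per 10000 in low-Ttr cells against 18.7 and 12.6 in Ttr-rich cells. Markers of other cell types were concentrated in a few low-Ttr cells. All 6 fibroblast markers were detected, summing to 31.1 (R1) and 22.04 (R2) per 10000 against 0.025 and 0.10 in Ttr-rich cells, and all 8 microglia or macrophage markers to 10.3 and 12.9 against 0.21 and 0.062, whereas all 8 rod markers were at 0. Without the 7 and 3 cells that carried 2 or more markers of another type, Hspa5 was at a log2 fold change of 0.53 with TMM and 0.94 above the median of all genes. Without those cells the dissociation genes stood at 2.41 and 2.32, below the Ttr-rich cells of both mice. In cells with Pax6 or Dkk3 UMIs (55 of 59 and 16 of 19) the Hspa5 values were 0.55 and 0.92. In cells under 7500 UMIs in both classes they were 0.52 and 0.89. Hspa5 passed in none of these fits with TMM (adjusted p = 0.55, 0.39 and 0.48 in the order given, edgeR). In R2 the choices by other markers and by Pax6 or Dkk3 gave the same summed library, of 16 cells and 82343 UMIs.

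Of the 81 other secretory genes, 76 were tested in this comparison with TMM over all genes. Of these, 6 (7.89%) were higher and 1 lower, beside 4.2% of all genes called higher and 6.67% lower. The genes called higher include Nupr1 and Cebpb, which the list holds as outputs of the stress response. Nupr1, a stress-induced transcriptional cofactor, had 53 and 32 UMIs in the low-Ttr cells of R1 and R2 and 11 and 41 in all Ttr-rich cells (log2 fold change 7.65 ± 0.56). Cebpb, a transcription factor, was higher by 1.70 ± 0.37 and Sec62, of the translocon, by 0.92 ± 0.31 on the log2 scale. Pdia5 and Fkbp7, an isomerase of each kind, were called on 13 and 8 and on 2 and 9 UMIs in the low-Ttr cells, so their folds (log2 6.13 ± 1.28 and 4.09 ± 1.43) are imprecise. Pdia5 had 23 and 10 UMIs in all Ttr-rich cells of R1 and R2. Nupr1 and Pdia5 passed the count filter only through the low-Ttr libraries, where they were high, so their calls are not independent of that filter. The part of cells with markers of other types in these counts was not tested. Srp9, of the signal recognition particle, was lower, with a log2 fold change of -1.82 ± 0.38.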

How the data were processed

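The authors aligned droplet reads to GRCm38 with Cell Ranger 1.2.0 and deposited, for each mouse, whole-number UMI counts per gene and cell without normalization; ambient RNA had not been removed. Cells with under 500 genes (4 in R1 and 0 in R2) or over 5% mitochondrial UMIs (58 and 28) were left out, as were the 4% with the highest score against artificial doublets (111 and 119). The gene list, the other lists and the tests were chosen with earlier results of these data known. Named genes were all members, the called genes of the other secretory list with the 3 largest and 3 smallest fold changes, and the 10 genes outside the list most correlated with Hspa5.

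For each comparison, counts were summed per mouse and cell class into 4 libraries, with the Ttr row left out of the totals, and tested with edgeR 4.0.16 (TMM, filterByExpr, glmQLFTest, two-sided, Benjamini-Hochberg, false discovery rate 0.05) in R 4.3.3. Both sums of a pair came from the same mouse, so the mouse was a block. With 2 mice, p-values rest on how the within-mouse difference agreed in 2 animals, with counting noise and a dispersion moderated over all genes. They do not measure the spread of levels between animals. SE was the fold change divided by the square root of F. DESeq2 1.42.0 was an alternative. The scripts were tested on simulated data. In simulated unchanged counts with the depths of the low-Ttr comparison, TMM over all tested genes put the small libraries too low. For this reason TMM over genes with at least 10 expected counts was added after seeing the data. The simulated counts took the Ttr-rich profile for both classes, so they do not decide between scalings of the real libraries. Hspa5 and Ttr tertiles in cells of at least 5000 UMIs were also added after seeing the data. Summed libraries held 90751 to 23379788 UMIs other than Ttr. Intervals (95%, exact Poisson) cover counting error only. Labels and methods name different versions of the capture chemistry; barcodes were 14 bases long.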

Additional observations from a re-analysis of the deposited data

How the results depend on the processing

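The number of low-Ttr calls among the members, 1 in the reported fit, was 2 with library totals, 7 without the replicate block, and 0 with DESeq2's size factors, DESeq2, Ttr kept in the totals, ambient subtraction, Pax6 or Dkk3 cells only, cells without markers of other types, or cells under 7500 UMIs. Among all genes, calls higher and lower were 520 and 699 with DESeq2's size factors, 487 and 715 with Ttr kept, and 486 and 767 with ambient subtraction. For the last 3 cell choices they were 361 and 652, 319 and 608, and 352 and 581. These low-Ttr fits tested 9626 to 11486 genes. The members' median there turned from -0.24 to 0.35 with library totals and 0.075 with TMM over abundant genes, and was -0.50 to -0.15 with 1 mouse left out. For Ttr tertiles the count of 0 became 1 with library totals, and the median of 0.02 was -0.03 to 0.030 with 1 mouse left out. For Hspa5 tertiles the count of 10 became 5 with library totals, 3 with DESeq2, 0 without the replicate block and 5 with depth deciles, and stayed at 8 to 11 otherwise. In those other settings 134 to 287 of all genes were called higher and 28 to 107 lower, of 10828 to 14625 tested. Of its calls, Pdia3, Pdia6 and Hsp90b1 were made in 13 of 14 settings and Calr in 7. For deep against shallow cells the median of 0.03 was 0.066 without a filter on low counts and -0.0074 to 0.022 with 1 mouse left out. The mean r of the members with the Ttr share over both mice, -0.042, was -0.032 as Spearman's rho, -0.14 with Ttr in the total and -0.035 after thinning. The mean summed level, 65.3, was 57.4 with Ttr in the total and 42.2 without the 5 members with the most UMIs. In low-Ttr cells the depth, 190979 and 90751 UMIs other than Ttr, limits what can be seen of members under about 1 UMI per 10000.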

Other observations

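The 58 and 28 cells over 5% mitochondrial UMIs had a summed level of 64.7 (95% Poisson interval 60.7 to 68.8) per 10000 in R1 and 59.0 (54.1 to 64.3) in R2, with medians of 2669 and 3453 UMIs per cell. The 111 and 119 cells with the highest doublet scores had 69.7 (68.5 to 70.9) and 65.1 (64.1 to 66.1), with medians of 17708 and 23723 UMIs, and none of them was a low-Ttr cell. The 4 and 3 low-Ttr cells with no Pax6 or Dkk3 UMI had 117 (99.3 to 137) and 88.1 (69.5 to 110). In R2, leaving these cells out gave the same summed library as leaving out the cells with markers of other types.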
